A study of Mus musculus with 15 samples.

Results

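Autophagy and lysosomal proteolysis were followed in fasted mouse skeletal muscle through 10 genes, chosen by their symbols: the cathepsins Ctsl, Ctsb and Ctsd, the lysosomal membrane proteins Lamp1 and Lamp2, the ATG8 proteins Map1lc3a, Map1lc3b and Gabarapl1, the autophagy receptor Sqstm1 and the transcription factor Tfeb. All 10 of 10 were present in the table of 22798 genes and all 10 passed the filter on low counts, which left 17975 genes. The groups were 3 libraries labelled CD47-KO (CD47-/- mice), 6 from exercised mice, whose genotype is not stated apart, and 6 from sedentary wild-type mice. All were C57BL/6 mice, 12 months old, on a normal diet and starved overnight before the muscle was taken, so fasting was common to every group. Neither the muscle sampled nor the kind and length of the exercise is given in the labels, and nothing in them states that each library is a different mouse. P-values therefore speak only of variation among the libraries, which may be technical.

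In autophagy, a membrane sac closes around cytoplasm and fuses with a lysosome, where acid hydrolases break the contents down. ATG8 proteins are attached to a lipid of that membrane and bind receptors such as the SQSTM1 protein (p62), which carry cargo. LAMP1 and LAMP2 line the lysosome, cathepsins are its main proteases, and TFEB switches on many lysosomal genes by binding an E-box. In fasting muscle, FOXO transcription factors are known to raise several of these genes, Ctsl and Gabarapl1 among them, and Ctsl is a member of the set of genes induced in many kinds of muscle atrophy.

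Upstream sequences are shown for the 3 genes that differed most between groups (Ctsl, Lamp2, Gabarapl1). They are also shown for the 2 others whose upstream window held CACGTG, the E-box core of the TFEB site. This core reads the same on both strands. Each sequence is the 250 bases before a RefSeq transcript start in GRCm38.p6, 5′ to 3′ on the gene's strand. Capitals mark CACGTG, or in Gabarapl1 the FOXO-type motif ATAAACA. They lie at chr13:64370521-64370770 (minus strand) for Ctsl, chrX:38456461-38456710 (minus strand) for Lamp2, chr6:129532942-129533191 (plus strand) for Gabarapl1, chr8:13158911-13159160 (plus strand) for Lamp1 and chr7:142387828-142388077 (minus strand) for Ctsd.
Ctsl: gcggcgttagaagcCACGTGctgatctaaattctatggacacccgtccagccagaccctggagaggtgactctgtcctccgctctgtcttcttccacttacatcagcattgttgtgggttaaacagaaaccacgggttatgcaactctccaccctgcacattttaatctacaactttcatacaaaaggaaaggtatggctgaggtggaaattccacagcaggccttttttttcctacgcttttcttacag
Lamp2: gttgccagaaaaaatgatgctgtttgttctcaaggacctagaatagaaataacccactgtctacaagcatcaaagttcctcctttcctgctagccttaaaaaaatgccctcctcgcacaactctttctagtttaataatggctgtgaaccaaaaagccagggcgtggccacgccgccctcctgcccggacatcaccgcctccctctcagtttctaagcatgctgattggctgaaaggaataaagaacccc
Gabarapl1: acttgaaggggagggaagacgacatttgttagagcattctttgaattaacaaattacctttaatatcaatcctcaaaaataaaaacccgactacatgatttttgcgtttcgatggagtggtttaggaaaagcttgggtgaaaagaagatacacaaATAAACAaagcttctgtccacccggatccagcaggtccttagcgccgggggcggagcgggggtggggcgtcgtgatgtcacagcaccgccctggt
Lamp1: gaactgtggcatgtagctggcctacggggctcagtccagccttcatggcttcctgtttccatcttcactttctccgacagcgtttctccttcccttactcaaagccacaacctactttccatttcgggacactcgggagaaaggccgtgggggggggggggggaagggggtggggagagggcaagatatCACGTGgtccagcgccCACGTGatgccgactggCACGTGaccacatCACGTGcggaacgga
Ctsd: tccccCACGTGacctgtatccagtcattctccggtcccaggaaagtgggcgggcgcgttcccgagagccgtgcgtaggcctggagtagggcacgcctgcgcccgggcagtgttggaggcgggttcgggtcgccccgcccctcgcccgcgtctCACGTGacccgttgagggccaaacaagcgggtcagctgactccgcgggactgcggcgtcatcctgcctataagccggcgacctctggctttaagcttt

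Lamp1 held CACGTG 4 times, with first bases at -61, -45, -28 and -15 from the start, Ctsd 2 times, at -245 and -98, and Ctsl 1 time, at -236. The Ctsl window lies inside the annotated gene, which in GENCODE M21 begins upstream of it, at 64370890. The windows of Ctsd and Gabarapl1 lie partly inside their annotated genes, which begin at 142388038 and 129533160. Of the Ctsd matches, that at -98 lies inside the annotated gene and that at -245 upstream of it. The search covered windows of 300 bases, from 250 before to 50 after the start, and no match lay in the last 50. Over all 32851 mouse promoter windows of 300 bases, 7.15% held CACGTG at least 1 time, 0.594% at least 2 times and 0.0244% at least 4 times. The FOXO motif GTAAACA, held by 3.65%, was in none of the 10 windows of the 8 genes with an entry. ATAAACA, held by 4.60% of all windows, was in that of Gabarapl1, at -95. Both strands were searched, the matches do not overlap, and a match is a description of the letters only. The windows of Lamp2, Map1lc3b, Sqstm1 and Tfeb held none of these motifs.

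Total counts were 76005277 to 84364189 in libraries labelled CD47-KO, 54851831 to 77628546 in exercise and 50928458 to 70774311 in sedentary libraries. No member had fewer than 1315 counts in any library. The targeted gene did not set the label apart as counted. Cd47 had 11.5 to 12.1 CPM (deposited counts scaled to library size) in libraries labelled CD47-KO, 10.8 to 15.7 CPM in exercise and 11.4 to 16.4 CPM in sedentary libraries. Its log2 fold change against sedentary was -0.26 (SE 0.17; adjusted p = 0.295 by edgeR's quasi-likelihood test), or -1.21 (adjusted p = 0.00235) after a correction for GC content. Every direction below is therefore that of libraries carrying the label. Fold changes against these libraries followed transcript GC content (Spearman rho -0.651 across 10396 genes, which share the same libraries), so values after the GC correction are given beside the calls. Mitochondrially encoded genes took 18.1 to 19.2% of counts in libraries labelled CD47-KO, 4.49 to 12.5% in exercise and 4.77 to 18.2% in sedentary libraries. All 12 of 12 skeletal muscle markers were present in every group. Macrophage markers, 16 of 16 of them detected in each group, summed to 53.2 to 73.8 CPM in libraries labelled CD47-KO, 27.9 to 77.1 CPM in exercise and 19.0 to 93.6 CPM in sedentary libraries.

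Relative to transcript length, Sqstm1 was the highest of the 10 genes and Lamp2 or Tfeb the lowest. Per kilobase of the principal transcript, Sqstm1 averaged 456 CPM in libraries labelled CD47-KO, 462 CPM in exercise and 459 CPM in sedentary libraries. Ctsd came next, at 277, 341 and 314 CPM per kilobase in the same order of groups, and then Lamp1, at 160.4, 239.8 and 205 CPM per kilobase. In sedentary muscle the order went on with Map1lc3a (195 CPM per kilobase), Gabarapl1 (61.1), Ctsb (50.8), Map1lc3b (38.2), Ctsl (25.4), Tfeb (20.4) and Lamp2 (11.8). Within single libraries, 6 of the 9 pairs of neighbours stood in this order in all 6 sedentary libraries. The exceptions were Lamp1 above Map1lc3a and Ctsl above Tfeb, each in 5 of 6 libraries, and Gabarapl1 above Ctsb in 4 of 6. In libraries labelled CD47-KO, Gabarapl1 stood at 128 CPM per kilobase, beside Map1lc3a at 125, and Ctsl at 73.7, above Ctsb at 44.2. Several of these places depend on the length used. Per kilobase of all exonic bases in place of the principal transcript, Ctsl stood at 22.4 CPM in libraries labelled CD47-KO, below Ctsb at 34.7, and Gabarapl1 at 116, below Map1lc3a at 118. By their means, the same change exchanged Sqstm1 and Ctsd in exercise and sedentary muscle, and Ctsb and Gabarapl1 in exercised muscle. In sedentary muscle it also exchanged Lamp1 and Map1lc3a, and Ctsl and Tfeb. Within single libraries, Map1lc3a then stood above Lamp1 in 1 of 6 sedentary libraries, and above Gabarapl1 in 1 of 3 labelled CD47-KO. The other exchanged orders of exercise and sedentary muscle held in 4 or 5 of 6 libraries.

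The libraries labelled CD47-KO were set against sedentary muscle to ask which of these genes differ with the label. Ctsl, Lamp2 and Gabarapl1 were higher, by 2.90-, 2.41- and 2.09-fold, and none of the other 7 genes passed in either direction. That is 3 of 10, all higher, where 20.7% of all genes tested passed in either direction, 11.9% higher and 8.75% lower. The median log2 fold change of the 10 genes was -0.10, and that of all genes tested -0.11. After GC correction 2 of 10 passed, Ctsl and Gabarapl1, both higher, where 9.65% of all genes did, 4.66% higher.

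**Figure D1:**
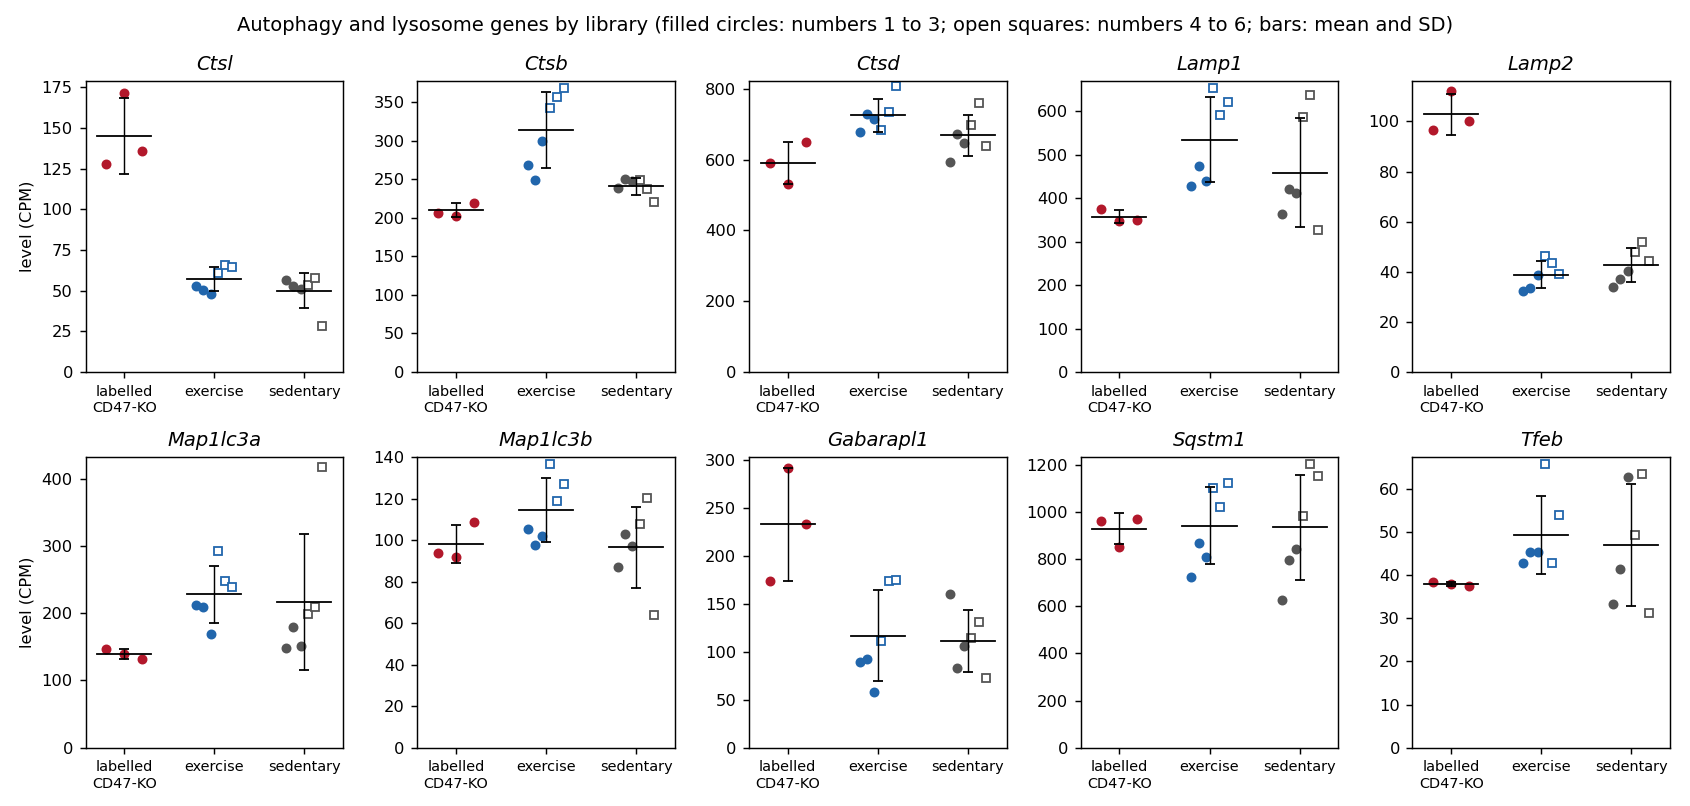
Level in CPM (counts scaled to library size, linear axis from 0) of each of the 10 genes in every library, by group; filled circles are libraries numbered 1 to 3, open squares 4 to 6, and bars the mean and SD. Ctsl and Lamp2 in the 3 libraries labelled CD47-KO sit above every exercise and sedentary library, and Gabarapl1 above every sedentary library.

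Ctsl, on chr13:64359337-64370890, encodes the cysteine protease cathepsin L. Its level was 128, 172 and 136 CPM in the libraries labelled CD47-KO. The sedentary libraries had 56.4, 52.7, 51.3, 53.7, 57.8 and 28.3 CPM. Every library labelled CD47-KO was above every sedentary library, by more than 2 times the highest of them in each case, and sedentary library 6 was the lowest of all. The log2 fold change was 1.54 (SE 0.20; adjusted p = 0.000112 by edgeR), and 0.95 (adjusted p = 0.0056) after GC correction. It passed in all 28 alternative fits. The strand setting of the counting is not given in the sources used here, and exons of Ctsl overlap those of the antisense gene Gm47123 over 1742 bases and of the pseudogene Gm49230 over 395, so their reads may be mixed with its own.

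Ctsb and Ctsd, the other proteases, did not pass. Ctsb, the cysteine protease cathepsin B on chr14:63122462-63145923, had 207, 203 and 220.0 CPM in libraries labelled CD47-KO, against 239, 250.2, 248, 249.6, 237 and 221 CPM in sedentary libraries. Those groups did not overlap, by a gap of about 1 CPM, and the log2 fold change was -0.20 (SE 0.17; adjusted p = 0.442 by edgeR), also -0.20 after GC correction. Ctsd, the aspartic protease cathepsin D on chr7:142375911-142388038, had 589, 531 and 649 CPM in libraries labelled CD47-KO. In sedentary libraries it had 593, 672, 646, 699, 761 and 638 CPM, and the groups overlapped (log2 fold change -0.18, SE 0.16; adjusted p = 0.473 by edgeR; 0.26 after GC correction). Exons of Ctsb overlap the antisense gene Fdft1 over 774 bases, and those of Ctsd the gene Gm49369 on the same strand over 808 bases.

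Of the pair of lysosome membrane proteins, Lamp2 was higher as counted and Lamp1 was not. Lamp2, on chrX:38401357-38456454, encodes the protein that takes part in fusion of autophagosomes with lysosomes and, as its A form, in chaperone-mediated autophagy. It had 96.5, 112 and 100.1 CPM in libraries labelled CD47-KO, against 33.8, 37.2, 40.5, 47.8, 52.0 and 44.5 CPM in sedentary libraries, with no overlap. The log2 fold change was 1.27 (SE 0.17; adjusted p = 0.000112 by edgeR). With a GC content of 38.7%, Lamp2 is the most AT-rich of the 10 transcripts, and the trend fitted over all genes at that GC content was 1.42. After GC correction its log2 fold change was -0.15 (adjusted p = 0.661), so the call ended and the direction turned. Lamp1, on chr8:13159161-13175338, had 376, 348 and 349 CPM in libraries labelled CD47-KO and 364, 421, 411, 587, 637 and 326 CPM in sedentary libraries, which overlapped (-0.36, SE 0.23; adjusted p = 0.315 by edgeR; -0.14 after GC correction).

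**Figure D2:**
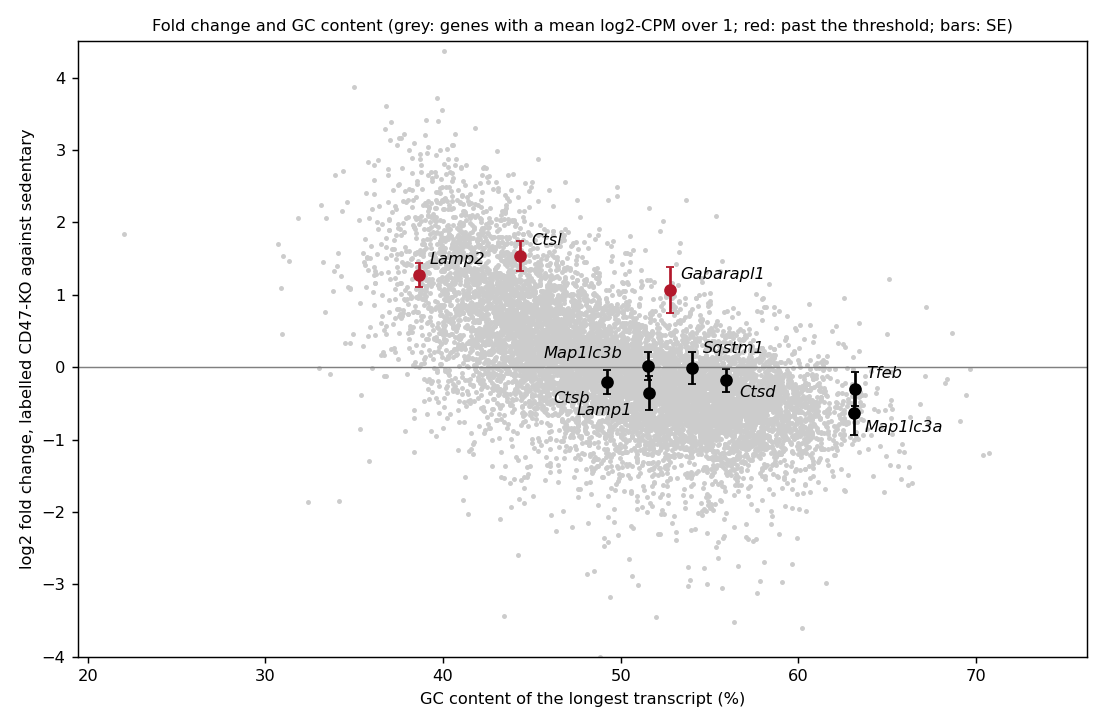
Log2 fold change of libraries labelled CD47-KO against sedentary (y axis) against the GC content of the longest transcript in percent (x axis), for genes with a mean log2-CPM over 1 (grey) and the 10 genes with their SE (red where past the threshold, black otherwise). Lamp2 lies inside the grey band at 38.7% GC, while Gabarapl1, at 52.7%, lies above most genes of like GC content; the median fold change of the decile lowest in GC was 1.23 and of the highest -0.58.

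Among the ATG8 genes, Gabarapl1 was higher and the 2 LC3 genes did not pass. Gabarapl1, on chr6:129533160-129542346, encodes the GABARAP-like ATG8 protein that takes part in the maturation of autophagosomes. Its level was 174, 292 and 233 CPM in libraries labelled CD47-KO, against 160.0, 82.8, 106, 114, 132 and 72.7 CPM in sedentary libraries. The groups did not overlap, but the lowest library labelled CD47-KO was close to sedentary library 1. The log2 fold change was 1.07 (SE 0.32; adjusted p = 0.0259 by edgeR), and 1.38 (adjusted p = 0.0113) after GC correction. Without library 2 labelled CD47-KO it was 0.83 (adjusted p = 0.157), and without library 3 1.11 (adjusted p = 0.0644), so the call rests on both. Exons of Gabarapl1 overlap the antisense transcript 1700101I11Rik over 570 bases.

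Map1lc3b, on chr8:121590361-121598760, encodes LC3B, the usual marker protein of autophagosomes. It had 93.9, 91.9 and 109 CPM in libraries labelled CD47-KO, against 86.9, 103, 97.4, 108, 120.5 and 63.9 CPM in sedentary libraries, a log2 fold change of 0.02 (SE 0.19; adjusted p = 0.956 by edgeR), and 0.24 after GC correction. Map1lc3a, on chr2:155276297-155278073, encodes LC3A. It had 147, 139 and 132 CPM in libraries labelled CD47-KO and 148, 179, 151, 199, 209 and 418 CPM in sedentary libraries, with sedentary library 6 far above the rest. Every library labelled CD47-KO was below every sedentary library, by less than 1 CPM at the closest, and the log2 fold change of -0.64 (SE 0.29) had an adjusted p of 0.139 by edgeR and became -0.024 after GC correction. It was -0.27 without sedentary library 6, and with only numbers 4 to 6 of the exercise and sedentary libraries it passed (-0.93, adjusted p = 0.0328). Against all genes tested, 26.0% did not overlap between these groups (15.7% higher, 10.3% lower), beside 5 of the 10 here, 3 higher and 2 lower.

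Sqstm1, on chr11:50199366-50210827, and Tfeb, on chr17:47737030-47792419, gave no call. Sqstm1 had 961, 852 and 971 CPM in libraries labelled CD47-KO, against 627, 796, 842, 985, 1205 and 1150.3 CPM in sedentary libraries. Its log2 fold change of -0.01 (SE 0.22; adjusted p = 0.982 by edgeR) changed sign under scaling by RLE factors, to 0.02. Tfeb had 38.4, 38.0 and 37.5 CPM in libraries labelled CD47-KO, a span of under 1 CPM, against 33.2, 41.3, 62.6, 49.3, 63.5 and 31.1 CPM in sedentary libraries (-0.30, SE 0.24; adjusted p = 0.409 by edgeR). After GC correction both stood above 0, at 0.34 and 0.24, without passing.

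**Figure D3:**
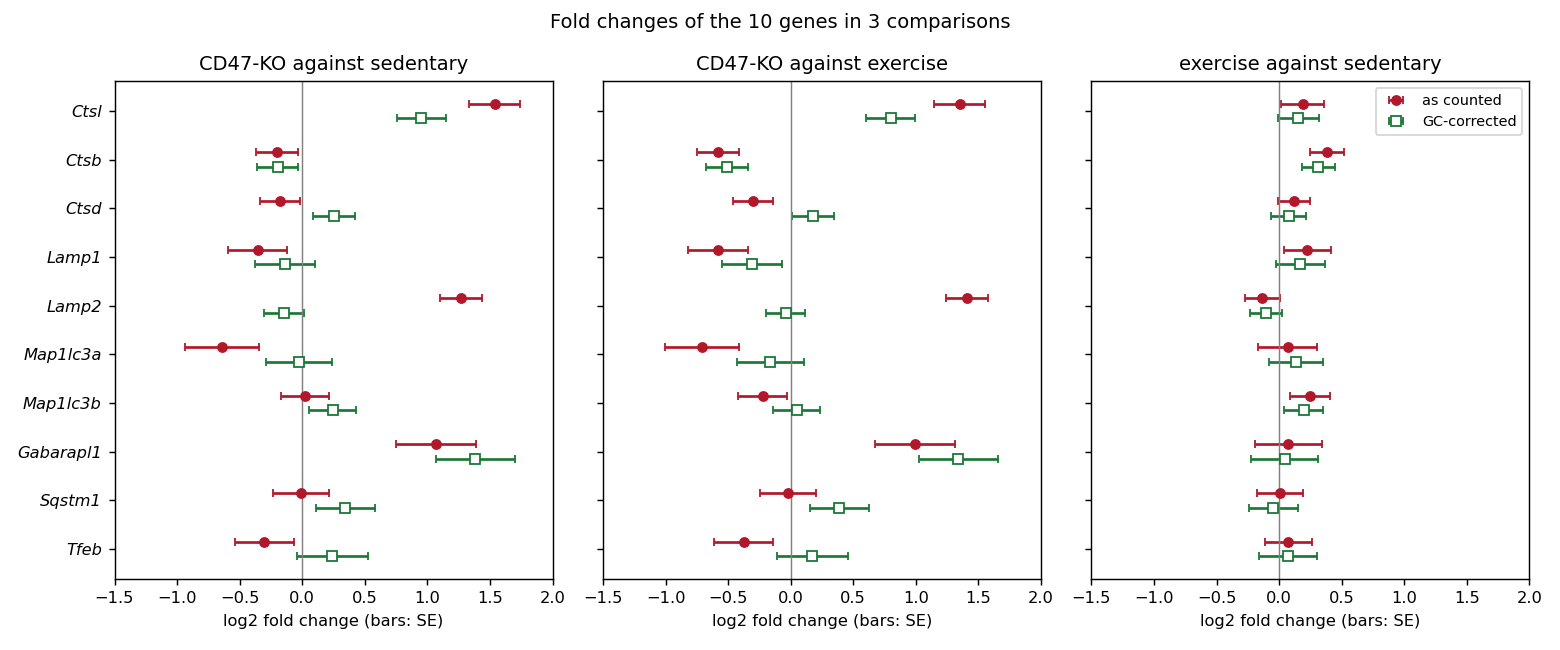
Log2 fold changes of the 10 genes with their SE in the 3 comparisons, as counted (filled circles) and after GC correction (open squares). Ctsl and Gabarapl1 stay above 0 in both comparisons of libraries labelled CD47-KO, Lamp2 falls to near 0 after correction, and exercise against sedentary runs only from -0.13 to 0.38.

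Exercised muscle was set beside sedentary muscle to ask whether exercise moved these genes, and 0 of 10 passed. No gene of the whole table did by edgeR (0% of genes tested; 665 had an unadjusted p under 0.05, limma-voom called 0 and DESeq2 10), and no alternative called any of the 10. Log2 fold changes ran from -0.13 (Lamp2, SE 0.14) to 0.38 (Ctsb, SE 0.13), with 9 of 10 above 0 and a median of 0.10, against -0.03 over all genes. Ctsb had 269, 249, 299.8, 342, 357 and 369 CPM in exercise libraries, and 5 of those 6 were above every sedentary library. No gene of the 10 was without overlap between these groups (0.161% of all genes, 0.1% higher and 0.0612% lower). Its unadjusted p was 0.0114, the lowest of the 10, and its adjusted p 0.9998 by edgeR. The others nearest to it were Map1lc3b at 0.25 (SE 0.16), Lamp1 at 0.22 (SE 0.19), Ctsl at 0.19 (SE 0.17) and Ctsd at 0.12 (SE 0.13). Without sedentary library 6, Ctsl had 0.053, Lamp1 0.13 and Map1lc3b 0.14. Lamp1 was 0.34 without sedentary library 5, Ctsd 0.079 and Lamp2 -0.20 without sedentary library 1. After GC correction the 10 genes ran from -0.11 (Lamp2) to 0.31 (Ctsb). Tfeb, Gabarapl1 and Map1lc3a each had 0.07 and Sqstm1 0.01, and all 4 changed sign when single libraries were left out.

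Within both the exercise and the sedentary group, libraries numbered 4 to 6 differed from those numbered 1 to 3, a division that the labels do not name. Sqstm1 averaged 1081 ± 53.2 CPM in exercise libraries 4 to 6 and 801 ± 71.8 CPM in exercise libraries 1 to 3 (SD, n = 3 each). In sedentary libraries 4 to 6 it averaged 1113 ± 115 CPM, and 755 ± 113 CPM in sedentary libraries 1 to 3. By its means Lamp1 followed the same order, with 622 ± 31.0 and 447 ± 23.5 CPM in exercise libraries and 517 ± 167 and 399 ± 30.4 CPM in sedentary libraries, but sedentary library 6, at 326 CPM, was below all of sedentary libraries 1 to 3. Ctsl and Ctsb had the opposite order of means in sedentary libraries, with 46.6 ± 16.0 and 53.5 ± 2.59 CPM for Ctsl and 236 ± 14.2 and 246 ± 6.12 CPM for Ctsb in numbers 4 to 6 and 1 to 3. For Ctsl that order rested on sedentary library 6, at 28.3 CPM, since sedentary libraries 4 and 5 had 53.7 and 57.8 CPM.

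Because of that division, the effect of exercise was also taken within each set. For Ctsb the log2 fold change was 0.59 in numbers 4 to 6 (unadjusted p = 0.00279, adjusted p = 0.581 by edgeR) and 0.14 in numbers 1 to 3. The difference of 0.44 (SE 0.22) had an unadjusted p of 0.0689. For Gabarapl1 the effects pointed in opposite directions, 0.52 in numbers 4 to 6 and -0.54 in numbers 1 to 3. Their difference was 1.06 (SE 0.44; unadjusted p = 0.0332, adjusted p = 0.967 by edgeR, where 0 of 17072 genes passed), so it did not hold over all genes. Ctsl had 0.44 and -0.09 in the same sets, and the difference ran from 0.26 to 0.72 without 1 library. In numbers 4 to 6, sedentary library 6 had 28.3 CPM of Ctsl, beside 53.7 and 57.8 CPM in sedentary libraries 4 and 5. Exercise and sedentary libraries did not overlap for Ctsl and Ctsb in numbers 4 to 6, both higher (7.71% of all genes), nor for Ctsd and Lamp1 in numbers 1 to 3, both higher (4.93% of all genes).

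Set against exercised muscle in place of sedentary muscle, the libraries labelled CD47-KO again had Ctsl, Lamp2 and Gabarapl1 higher, and Ctsb lower, 4 of 10 where 20.6% of all genes passed (12.2% higher, 8.34% lower). After GC correction 2 of 10 passed, both higher, where 9.51% of all genes did, 5.26% higher and 4.25% lower. As counted, 7 of 10 did not overlap between these groups, 2 higher and 5 lower, where 31.7% of all genes did not (17.5% higher, 14.1% lower). Both comparisons use the same 3 libraries labelled CD47-KO. The exercise libraries had 52.7, 50.6, 48.1, 60.7, 65.6 and 64.4 CPM of Ctsl, and the log2 fold change was 1.35 (SE 0.20; adjusted p = 0.000229 by edgeR; 0.80 after GC correction, adjusted p = 0.0147). Lamp2, with 32.4, 33.4, 38.6, 46.2, 43.4 and 39.1 CPM in exercise libraries, had 1.41 (SE 0.17; adjusted p = 3.57e-05), and -0.04 (adjusted p = 0.922) after correction. For both genes, no exercise or sedentary library reached the lowest library labelled CD47-KO.

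Gabarapl1 was more variable in exercised muscle, with 89.9, 93.1, 58.7, 112, 174 and 175 CPM. Its 2 highest exercise libraries reached the level of the lowest library labelled CD47-KO, and the log2 fold change was 0.99 (SE 0.32; adjusted p = 0.0362 by edgeR; 1.34 after GC correction, adjusted p = 0.0125). It did not pass without library 2 or 3 labelled CD47-KO (adjusted p = 0.203 and 0.0808), nor without exercise library 1 or 2 (adjusted p = 0.0684 and 0.0582), nor with only numbers 4 to 6 of the exercise and sedentary libraries (0.65, adjusted p = 0.132). Ctsb had -0.58 (SE 0.17; adjusted p = 0.0214), and the call ended after GC correction (-0.51, adjusted p = 0.0653). It also ended without any 1 of the libraries labelled CD47-KO and without any 1 of exercise libraries 4 to 6 (adjusted p = 0.0629 to 0.121), with no filter on low counts (adjusted p = 0.053), and with only numbers 1 to 3 of the exercise and sedentary libraries (-0.29, adjusted p = 0.119). Lamp1 at -0.58 (adjusted p = 0.0955; -0.31 after GC correction) and Map1lc3a at -0.71 (adjusted p = 0.104; -0.16 after GC correction) did not pass. Map1lc3a passed in 4 of 28 alternatives: with only the 2 groups in the fit (adjusted p = 0.0264), without sedentary library 6 (0.02), without sedentary libraries 1 and 6 (0.00916) and with only numbers 4 to 6 (0.0483). Lamp1 passed in the last 2 of these (adjusted p = 0.047 and 0.0492).

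Ratios within a library need no scaling between libraries, so related genes were also set against each other. Ctsl per Ctsd averaged -2.03 ± 0.35 on the log2 scale in libraries labelled CD47-KO (SD, n = 3), -3.68 ± 0.17 in exercise and -3.77 ± 0.37 in sedentary libraries (SD, n = 6 each). The difference from sedentary was 1.75 and that from exercise 1.65, each with p = 0.0119 by a two-sided exact permutation test, the smallest that 84 arrangements allow (adjusted p = 0.0238 over 6 tests). After GC correction the difference from sedentary was 0.71 (exact p = 0.0595) and that from exercise 0.62 (exact p = 0.0119). Exercise differed from sedentary by 0.10 (exact p = 0.688).

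Map1lc3b per Map1lc3a averaged -0.51 ± 0.20 in libraries labelled CD47-KO, -0.98 ± 0.14 in exercise and -1.10 ± 0.79 in sedentary libraries. Libraries labelled CD47-KO differed from exercise by 0.47 (exact p = 0.0119, adjusted p = 0.0238; 0.19 and exact p = 0.119 after GC correction). Their difference from sedentary was 0.59 (exact p = 0.274), and 0.22 (exact p = 0.714) after GC correction. Without sedentary library 6, whose ratio of -2.71 lay far below the rest, it was 0.26 as counted (unadjusted exact p = 0.0357). After GC correction the libraries labelled CD47-KO, at -0.83, -0.90 and -0.57, overlapped sedentary libraries 1 to 5, at -0.58, -0.72, -0.61, -0.95 and -0.83. Exercise against sedentary gave 0.12 (exact p = 0.985), and without sedentary library 6 -0.21 (unadjusted exact p = 0.0303), so the direction turned.

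**Figure D4:**
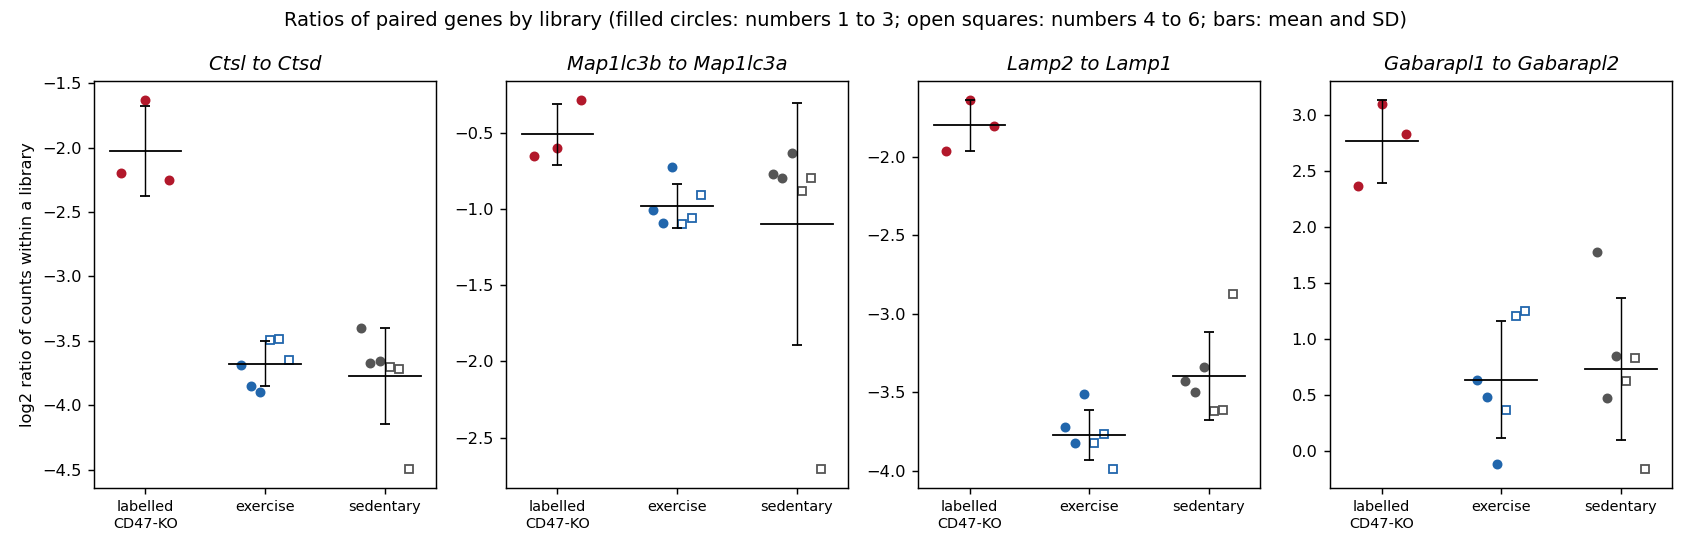
Log2 ratio of counts of 2 related genes within each library, by group (filled circles are libraries numbered 1 to 3, open squares 4 to 6, bars the mean and SD). The 3 libraries labelled CD47-KO lie above all others for Ctsl to Ctsd, Lamp2 to Lamp1 and Gabarapl1 to Gabarapl2, and sedentary library 6 is lowest for Ctsl to Ctsd and Map1lc3b to Map1lc3a.

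A further pair of ratios was chosen after the values were seen and has no test. Lamp2 per Lamp1 averaged -1.80 in libraries labelled CD47-KO, -3.77 in exercise and -3.40 in sedentary libraries, but -3.16, -3.41 and -3.12 after GC correction. Gabarapl1 per Gabarapl2 averaged 2.77 in libraries labelled CD47-KO, 0.63 in exercise and 0.73 in sedentary libraries, and 3.38, 0.49 and 0.58 after GC correction. For this ratio the 3 libraries labelled CD47-KO lay above all 12 others as counted, from 2.37 to 3.11.

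Of the relatives of Gabarapl1 and Tfeb, 1 was lower and 1 higher. Gabarapl2, another ATG8 gene, had 33.6, 33.9 and 32.6 CPM in libraries labelled CD47-KO, against 46.6, 59.7, 58.9, 74.4, 74.1 and 81.5 CPM in sedentary libraries. It fell, with a log2 fold change of -0.98 (SE 0.20; adjusted p = 0.0023 by edgeR) and -1.44 after GC correction (adjusted p = 0.000457). Gabarap had -0.34 (adjusted p = 0.298). Of the transcription factors related to Tfeb, Mitf rose, with 22.0 ± 6.52 CPM in libraries labelled CD47-KO (SD, n = 3) and 7.94 ± 2.20 CPM in sedentary libraries (SD, n = 6; log2 fold change 1.47, SE 0.23; adjusted p = 0.000451; 0.76 and 0.0205 after GC correction). Tfe3 had -0.22 (adjusted p = 0.519), and Tfec was not among the genes tested.

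The wider pathway was described with 10 lists that together hold 217 further genes of the table, 212 of them tested. In libraries labelled CD47-KO against sedentary, 25 were higher and 23 lower by edgeR, 22.6% beside 20.7% of all genes. After GC correction 16 were higher and 16 lower, 15.1% beside 9.65%. Of the 48 calls, 17 kept their direction and passed after correction, and 2 passed in the other direction. Against exercise there were 20 higher and 30 lower (23.6%, beside 20.6% of all genes), and exercise against sedentary gave 0. In the counts by list that follow, the 10 genes are included, and each is to be read against 11.9% higher and 8.75% lower of all genes as counted, and 4.66% and 5% after correction.

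**Figure D5:**
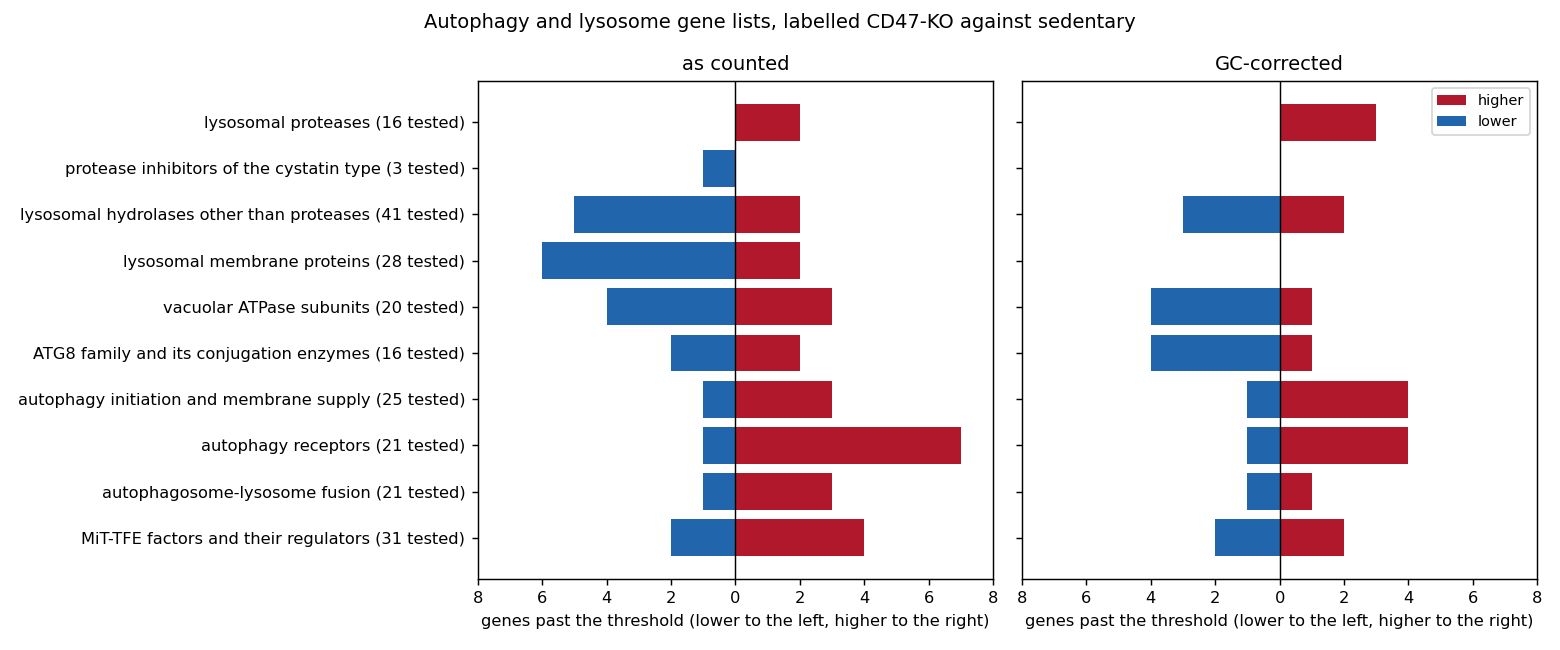
Number of genes past the threshold in each pathway list, lower to the left and higher to the right, in libraries labelled CD47-KO against sedentary, as counted and after GC correction (the number tested stands beside each name). The autophagy receptors have the most higher calls as counted, 7 of 21; after correction they and the initiation list have 4 each, and the calls of the lysosomal membrane list, 2 higher and 6 lower, are all absent after correction.

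In the degradative part, 2 of 16 lysosomal proteases were higher and 0 lower, 12.5% higher beside 11.9% of all genes, and after GC correction 3 and 0. Besides Ctsl this was Tpp1, the tripeptidyl peptidase 1, with 57.6 ± 4.60 CPM in libraries labelled CD47-KO (SD, n = 3) and 29.5 ± 12.0 CPM in sedentary libraries (SD, n = 6; log2 fold change 0.97, adjusted p = 0.0341; 0.94 after GC correction, adjusted p = 0.0477). Of 3 cystatin-type inhibitors, Cst3, which encodes cystatin C, an inhibitor of cathepsins, fell (-0.82, adjusted p = 0.021), a call that GC correction ended (-0.34). Among 41 other hydrolases, 2 were higher and 5 lower, and after correction 2 and 3. The fucosidase gene Fuca1 (-1.02, adjusted p = 0.000634) and the glucuronidase gene Gusb (-1.04, adjusted p = 0.0019) fell and kept their calls after correction, while the sulfatase gene Ids rose by 1.01 as counted and had 0.019 after correction.

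In the lysosomal membrane list, which also holds Npc2 though its protein is soluble, 2 of 28 genes were higher and 6 lower. None passed after GC correction. Scarb2, the receptor that carries glucocerebrosidase to lysosomes, rose by 0.89 (adjusted p = 0.00292), and by 0.56 after correction (adjusted p = 0.0546). Cd63 (-0.76) and the cholesterol carrier Npc2 (-0.50) fell, and neither passed after correction (-0.26 and -0.30). Of 20 subunits and partners of the vacuolar ATPase, the proton pump of lysosomes, 3 were higher and 4 lower, and after correction 1 and 4. Atp6v1a, its catalytic subunit, rose by 1.32 (adjusted p = 0.000569; 0.78 after correction, adjusted p = 0.0121). Atp6ap2 rose by 1.15, with 0.0024 after correction. Atp6v1f (-1.11) and Atp6v0d1 (-0.67) fell, and neither passed after correction, at -0.79 (adjusted p = 0.131) and -0.33.

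In the autophagy machinery, the ATG8 list with its conjugation enzymes had 2 higher and 2 lower of 16, and after GC correction 1 and 4. Atg4d, a protease that trims ATG8 proteins, fell by 0.96 on the log2 scale (adjusted p = 0.001; -0.58 after correction, adjusted p = 0.047). Atg3, the enzyme that passes ATG8 to lipid, had 0.58 (adjusted p = 0.0286) as counted but -0.63 (adjusted p = 0.0141) after correction, so its direction depends on the correction. Of 25 initiation genes, 3 were higher and 1 lower, and after correction 4 and 1. Rb1cc1, which encodes the ULK1 complex scaffold FIP200, had the largest change of the genes named here, with 84.7 ± 11.2 CPM in libraries labelled CD47-KO and 10.9 ± 6.67 CPM in sedentary libraries (2.96, SE 0.49; adjusted p = 0.000622; 1.73 after correction, adjusted p = 0.00553). Zfyve1, the omegasome protein DFCP1, rose by 1.18 (1.43 after correction), and Atg101, another ULK1 complex subunit, fell by 0.81, with -0.32 and no call after correction.

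Among 21 autophagy receptors, 7 were higher and 1 lower, 33.3% higher beside 11.9% of all genes, with a median log2 fold change of 0.41. After GC correction 4 were higher and 1 lower, 19.0% higher beside 4.66%, with a median of 0.031. Sec62, a receptor for endoplasmic reticulum, rose by 2.16 (SE 0.19; adjusted p = 5.12e-06; 1.26 after correction). Tax1bp1, a receptor for ubiquitinated cargo that shares this role with Sqstm1, had 146 ± 20.5 CPM in libraries labelled CD47-KO and 34.6 ± 10.9 CPM in sedentary libraries (2.07, adjusted p = 6.13e-05; 0.83 after correction). Fkbp8, a mitochondrial receptor, fell by 1.06 (adjusted p = 0.000454), with an adjusted p of 0.0664 after correction. Of 21 fusion genes, 3 were higher and 1 lower, and after correction 1 and 1. Epg5, a tether, rose by 0.76 (0.93 after correction) and the SNARE gene Vamp8 fell by 1.42 (-1.22 after correction), while Vps41 rose by 0.66, with 0.14 and no call after correction.

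Of 31 MiT-TFE factors and regulators, 4 were higher and 2 lower, and after GC correction 2 and 2. Besides Mitf, Fnip1, a folliculin partner, rose by 1.62 (0.27 after correction, adjusted p = 0.555). Lamtor1, the lysosomal anchor of Ragulator, fell by 0.87 (-0.92 after correction, adjusted p = 0.0232), and Tsc2 had -0.58 with an adjusted p of 0.0496 (-0.18 after correction). Of the pathway genes outside the 10 that are named here for a call, those that lost it when some single library was left out were Tpp1, Cst3, Cd63, Npc2, Atp6ap2, Atp6v1f, Atp6v0d1, Atg3, Vps41, Epg5, Vamp8, Lamtor1 and Tsc2, most of them without 1 of the libraries labelled CD47-KO. Skeletal muscle markers moved with this label too, with 5 of 12 lower as counted, and 1 higher and 1 lower after correction, and their part in these results was not tested. Fewer cells of a type and less RNA per cell cannot be told apart in whole muscle.

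In exercise against sedentary, the pathway genes with the smallest p-values included Ncoa4, the receptor for ferritin (1.20, SE 0.44; unadjusted p = 0.0152), upward, and Atg16l2 (-0.53, unadjusted p = 0.0502) and Nagpa (-0.50, unadjusted p = 0.0534) downward. Each had an adjusted p of 0.9998 by edgeR, so none passed, and Ncoa4 moved to 1.90 without sedentary library 4 and Atg16l2 to -0.24 without sedentary library 6.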

How the data were processed

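RNA from skeletal muscle was sequenced from 15 libraries, prepared per the labels' protocols with the NEBNext Ultra kit. The authors deposited gene counts in 1 table of 22798 symbols, made on the build GRCm38 with HTSeq 0.6.1, HISAT2 2.0.1 and Trimmomatic 0.30, per the submitters' processing notes. Among deposited counts from 1 to 15, the values 4, 8 and 12 took 32.1 to 33.6% in libraries labelled CD47-KO. They took 43.6 to 50.2% in exercise and 41.7 to 48.5% in sedentary libraries. A count may therefore not stand for a single read, and this share differed with the label without overlap. Its part in the comparisons of libraries labelled CD47-KO was not tested. The closest pair of libraries in a group had a chi-square per degree of freedom of 78.1, far from that of copies.

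Libraries were grouped by their titles. Counts were filtered with filterByExpr (17975 genes left), scaled by TMM and tested with edgeR 4.0.16 (R 4.3.3), by a robust quasi-likelihood fit of all 15 libraries, two-sided, with Benjamini-Hochberg adjustment over all genes and a threshold of 0.05. CPM are counts divided by the TMM-scaled library size. Transcript GC content and gene positions came from GENCODE M21. The GC correction fitted, per library, a lowess curve (span 0.3) of log2-CPM less its mean on GC content and entered it as offsets. Ratios were log2 values of counts plus 0.5, with an exact permutation test. The 10 genes, the lists, the tests and the alternative settings were chosen with earlier results of these data known. Up to 2 further genes per direction and list, those with the smallest p in libraries labelled CD47-KO against sedentary and a mean log2-CPM no lower than 1, were named, with Gabarap, Gabarapl2, Tfe3, Mitf and Tfec in any case, and for exercise the 2 smallest p-values per direction. A gene that this rule also takes is not reported here. Alternatives were RLE factors, DESeq2 1.42.0, limma-voom (limma 3.58.1), other filters, only the groups compared, a fit that is not robust, a block by replicate number, the GC correction, subsets of numbers and leaving out each library.

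When tested on simulated data, edgeR recovered 22 of 100 genes with a set log2 fold change of 1 and 81 of 100 with 2 in CD47-KO against sedentary (3 false calls among 17338 genes), 42 and 92 in exercise against sedentary (7 among 17342), and 18 and 86 in CD47-KO against exercise (4 among 17332). Only these genes were changed, where 3719 passed against sedentary and 3698 against exercise in the deposited data. The adjustment over all genes then differs, so these recoveries are not those of the real fits. Same-numbered exercise and sedentary libraries (by title) deviated together in every pair (correlations 0.273 to 0.539), but libraries of the same set (1 to 3 or 4 to 6) with another number did so about as much (0.0487 to 0.492; -0.553 to -0.114 across sets), so the correlations do not tell the number from the set. No label ties the numbers, and the titles number the last 3 exercise libraries otherwise than the table's columns do. CD47-KO libraries 1 and 2 did not deviate with exercise or sedentary libraries of their number (-0.192 to -0.0165). Number 3 did, at 0.208 with sedentary and 0.309 with exercise. Promoter sequences came from RefSeq, GRCm38.p6, and 8 of the 10 genes matched; Ctsb and Map1lc3a had no entry. Of the symbols, 22716 matched the annotation once, 43 several times and 39 not at all. The deposited counts set the precision of the values. Counting error alone was not estimated, since a count may not stand for a single read.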

Additional observations from a re-analysis of the deposited data

Results flagged for a closer look

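In groups of 6 libraries, a library was singled out where its gap to the nearest other exceeded 0.625 of the group's range (Dixon's 95% value). Of 24 groups of values examined, 4 had such a library, where chance gives about 1 in 20. All 4 were sedentary library 6: Ctsl stood at 28.3 CPM there, below the other 5 sedentary libraries, and Map1lc3a at 418 CPM, above them. Its log2 ratio of Ctsl to Ctsd was -4.49 and that of Map1lc3b to Map1lc3a -2.71, both below the rest. The ratios contain the same genes, so the 4 values are not separate observations. In that library mitochondrially encoded genes took 18.2% of counts, beside 4.77 to 9.21% in the other sedentary libraries, and its TMM scaling factor of 0.795 was the lowest of all 15. Their part in these values was not tested.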

How the results depend on the processing

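Ctsl passed in libraries labelled CD47-KO under all alternatives run, against sedentary and against exercise, and no alternative called any of the 10 genes in exercise against sedentary. Of the 10 genes, 3 passed against sedentary, or 2 to 3 without 1 library. Against exercise 4 passed, 2 after GC correction and 2 to 5 without 1 library. Among the other pathway genes, 48 passed against sedentary, 29 with only these groups in the fit, 74 with the replicate number of the titles as a block, 88 with exercise and sedentary libraries of numbers 1 to 3 only, and 24 to 56 without 1 library (29, 25 and 24 without library 1, 2 or 3 labelled CD47-KO). Against exercise 50 passed, 28 after GC correction, 78 without sedentary libraries 1 and 6 together, 85 with exercise and sedentary numbers 1 to 3 only, and 26 to 68 without 1 library (28, 27 and 26 without library 1, 2 or 3 labelled CD47-KO). With the replicate block, Ctsb no longer passed against exercise (adjusted p = 0.0541 by edgeR), and no gene of the 10 or of the lists passed in exercise against sedentary, also in a fit of those 12 libraries alone, which was chosen after seeing the data. Lamp2 passed in 26 of 28 alternatives in both comparisons (not with the GC corrections), Gabarapl1 in 26 of 28 against sedentary and 23 of 28 against exercise, and Ctsb in 17 of 28 against exercise. Fits with fewer libraries estimate the spread from fewer, and among them the number of calls both fell and rose. The cause of these shifts was not tested. After GC correction, 13.2% of the other pathway genes passed against exercise, beside 9.51% of all genes. For the other alternative fits the share of all genes is not given. Their counts therefore cannot be read as particular to these genes.

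Against sedentary, the GC correction turned the log2 fold changes of Lamp2 to -0.15, Ctsd to 0.26, Sqstm1 to 0.34, Tfeb to 0.24, Atg3 to -0.63 and Tfe3 to 0.055. The correction with the replicate block gave Lamp2 -0.25, Ctsd 0.35, Lamp1 0.15, Map1lc3a 0.37, Sqstm1 0.68 (adjusted p = 0.0192 by edgeR), Tfeb 0.47, Atg3 -0.70 and Gabarap 0.059. Sqstm1, at -0.01, also turned to 0.017 with RLE factors, 0.025 with DESeq2, 0.020 with limma-voom, 0.042 with no filter, 0.035 with only these groups, 0.28 with the replicate block and 0.37 with exercise and sedentary numbers 1 to 3, and ran from -0.15 to 0.14 without 1 library. Map1lc3b ran from -0.059 to 0.13 without 1 library and was -0.091 without sedentary libraries 1 and 6, and Tfe3 was 0.15 with exercise and sedentary numbers 4 to 6.

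For exercise against sedentary, Sqstm1 turned to -0.020 with RLE factors and with the strict filter, -0.017 with DESeq2, -0.018 with the GC correction and block, -0.0061 with only these groups, -0.045 with GC correction, -0.027 without sedentary libraries 1 and 6 and -0.042 in numbers 4 to 6. Gabarapl1 turned to -0.00401 with the replicate block, -0.045 with that and GC correction, -0.013 with a block for the sets of numbers and -0.55 in numbers 1 to 3. Tfeb was -0.14 without sedentary libraries 1 and 6 and -0.054 in numbers 1 to 3, Ctsl -0.10 in numbers 1 to 3 and Map1lc3a -0.082 in numbers 4 to 6. Without 1 library, Sqstm1 ran from -0.089 to 0.096, Gabarapl1 from -0.080 to 0.21, Tfeb from -0.032 to 0.18 and Map1lc3a from -0.027 to 0.35. Against exercise, Lamp2 in libraries labelled CD47-KO was -0.041 with GC correction and -0.15 with the block added, and Map1lc3a 0.19 with both.

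The ratio of Ctsl to Ctsd differed from sedentary by 0.71 after GC correction (1.55 to 1.86 without 1 library) and from exercise by 1.45 to 1.76 without 1 library. For exercise against sedentary it was -0.24 in numbers 1 to 3 and -0.047 to 0.17 without 1 library. Map1lc3b to Map1lc3a gave 0.26 to 0.68 against sedentary and 0.36 to 0.54 against exercise without 1 library. After GC correction it gave 0.22 against sedentary and 0.19 against exercise. For exercise against sedentary it was -0.21 in numbers 1 to 3 and -0.21 to 0.21 without 1 library. With 3 libraries labelled CD47-KO, little can be read from genes that did not pass. The simulated recovery of 22 of 100 genes at a log2 fold change of 1 does not measure this limit. Far fewer genes were changed there than the 3719 that passed against sedentary here.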
